A study of Mus musculus with 8 samples.

Results

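The IL-1 family and inflammasome genes examined here were Il1b, Il1rn, Il1r1, Il1r2, Il1rl1, Il33, Il18, Nlrp3, Casp1 and Pycard, 10 of the 55401 genes in the deposited table, taken by symbol for their roles. They were measured by bulk RNA-seq of tibialis anterior (TA) muscles, with 4 samples from mdx5cv mice and 4 from wild-type (WT) mice. The mice were 6 months old and of the C57/Bl6 strain, and male by the general statement of the study's methods. The mdx5cv mouse carries a mutation in Dmd, the dystrophin gene, in every cell, and is a model of Duchenne muscular dystrophy. Each library was made from total RNA of a whole muscle, so the values cover muscle fibers together with all other cells of the tissue.

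The IL-1 family consists of secreted signals, their receptors, and proteins that hold them in check. IL-1 beta and IL-18 are made as inactive precursors, and caspase-1 cuts them once it is activated on an inflammasome, an assembly of a sensor such as NLRP3 with the adaptor ASC, the product of Pycard. In muscle, damaged fibers, resident stromal cells and infiltrating leukocytes all take part in this signaling, and macrophages are a well known source of inflammasome proteins.

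In the mdx5cv muscles, the RNA of the natural antagonist Il1rn rose from at most 1.10 normalized counts to at least 30.2, the inflammasome adaptor Pycard and the protease Casp1 rose by over 2 units of log2, and the IL-33 receptor Il1rl1 rose by 1.48. The ligand Il33 showed no detectable difference, with a log2 fold change of 0.26. The IL-1 receptor Il1r1 was about doubled, at a log2 fold change just under the threshold. Il1b, Il18, Nlrp3 and Il1r2 were near the limit of detection, with at most 14 reads in any muscle. Among them, Il18 was called higher without a filter on low values in limma and DESeq2, and Il1b in limma only.

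Values are normalized counts, which are reads scaled by the size factor of their library, and fold changes are of mdx5cv over WT on the scale of log2(normalized count + 1), a scale on which changes of genes with few reads look smaller than they are. Genes were called at an adjusted p under 0.05 (limma, Benjamini-Hochberg over the 13677 genes whose normalized counts averaged 10 or more) and a log2 fold change of 1 or more in either direction. Recovered reads per muscle ranged from 13175524 to 14921057, and the first principal component held 73.9% of the variance and separated the groups, with mdx5cv replicate 4 the farthest out. Dmd was lower in every mdx5cv muscle, with a mean of 3964 ± 388 against 6954 ± 857 in WT (SD, n = 4). The 6 skeletal muscle fiber markers were abundant in all muscles. Their summed level was 935263 to 1157584 in WT and 678630 to 1049512 in mdx5cv. None was called, but 2 were lower at an adjusted p under 0.05 alone, and the lowest log2 fold change was −0.75 (limma). The labels number the samples of each group and do not state that each came from a separate animal. The p-values thus measure the spread between these samples, which may be technical. Reads of each pair of libraries of a group differed by more than counting error, with a chi-square per degree of freedom of 8.59 to 38.4. The source of that spread was not tested.

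**Figure D1:**
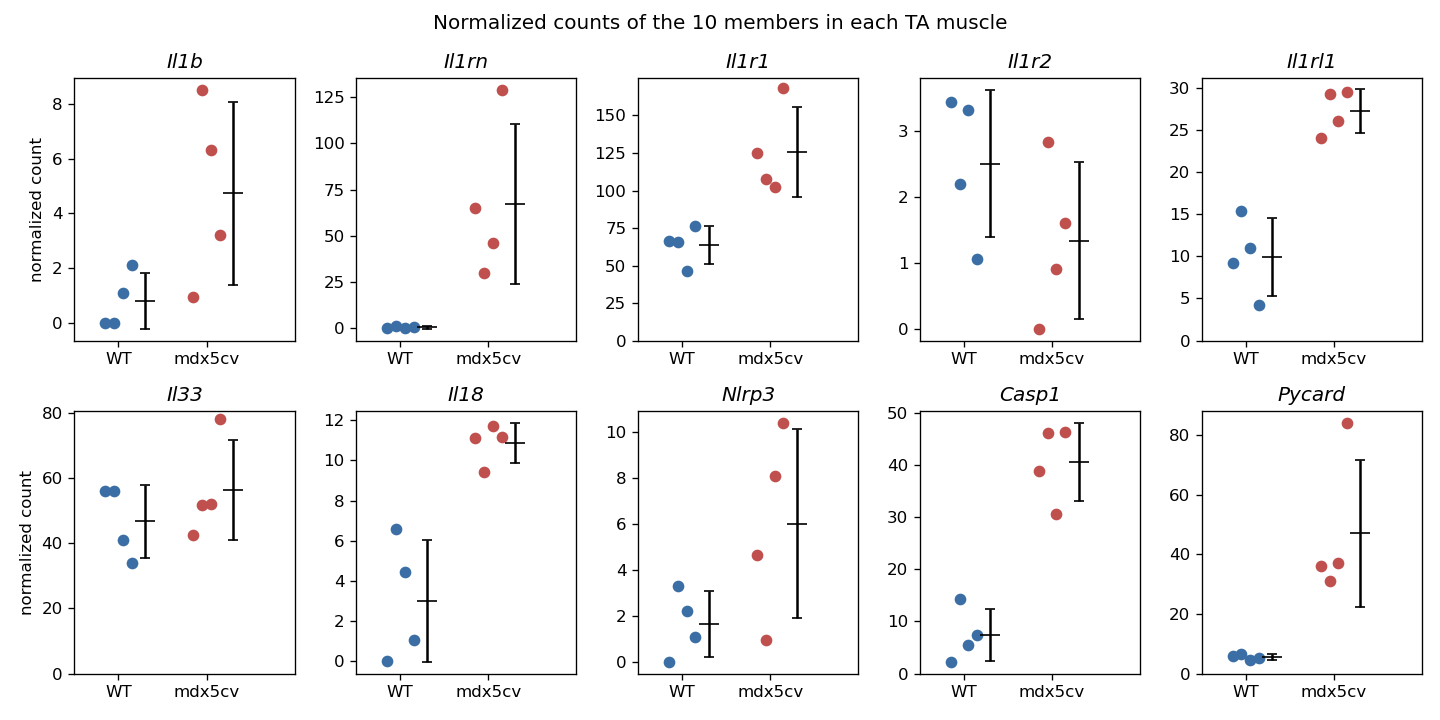
Normalized counts (y axis, a linear scale of its own in each panel) of the 10 genes in the 4 WT muscles (blue) and the 4 mdx5cv muscles (red). Each point is 1 muscle, and the black bars give the mean ± SD. Il1rn, Pycard, Casp1, Il1rl1, Il1r1 and Il18 show no overlap of the groups, and Il1b, Il1r2, Il33 and Nlrp3 overlap.

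Of the 10 genes, 6 averaged 10 or more normalized counts and were tested. Of these, 4 were called higher in mdx5cv, none was called lower, and Il1r1 and Il33 were not called. The same threshold called 13.6% of all genes tested in either direction and 10.3% in the higher direction. Il1rn, Il1rl1, Casp1 and Pycard averaged under 10 in WT and entered the test only through their level in mdx5cv, so that their number is given as an account of the genes and not as a share to be read against that background. Without a filter on low values, all 10 genes were among 28501 tested, and 6 were called higher and none lower, against 7.73% of genes higher and 9.98% in either direction. Il18 and Il1b were the members added. At an adjusted p under 0.05 alone, 5 of the 6 genes were higher. Of all 13677 genes tested, 2854 were higher at that p and 40.9% differed in either direction. The values of the groups did not overlap for the same 5 genes, beside 40.1% of all genes tested in either direction. As 4 of these 5 genes entered the test only through mdx5cv, neither count is read against these shares. None of the 10 genes reached an adjusted p under 0.05 in the lower direction in limma or DESeq2, and none of the 6 tested did in edgeR. Il1r2 was the only member with a lower mean in mdx5cv (exact permutation p = 0.229, two-sided), so that no tested member was lower at an unadjusted p under 0.05 either.

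Il1rn encodes the IL-1 receptor antagonist, which occupies the IL-1 receptor without signaling. It lies on chromosome 2 from 24336853 to 24351494, on the plus strand (GRCm38, GENCODE M21, for this and the other positions). In WT it was at 0, 1.10, 0 and 1.06 normalized counts, 2 reads in all. In mdx5cv it was at 64.9, 30.2, 45.9 and 129, 314 reads in all. All 4 mdx5cv muscles were far above the WT muscles, and replicate 4 was the highest. The ratio of the summed reads, scaled by the size factors, was 127, with an exact 95% interval of 34.8 to 1051 that covers counting error only. The log2 fold change was 5.37 (standard error 0.48, adjusted p = 5.01e-06, limma), and it was 4.99 without mdx5cv replicate 4. In edgeR and DESeq2, which do not add 1 to the values, it was 6.66 and 6.94.

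Il1b, on chromosome 2 from 129364570 to 129371139 on the minus strand, encodes IL-1 beta, the ligand that Il1rn opposes. Its normalized counts were 0, 0, 1.11 and 2.12 in WT and 0.926, 8.49, 6.30 and 3.20 in mdx5cv. The groups overlapped, because mdx5cv replicate 1 had 1 read. With 3 reads in WT and 21 in mdx5cv, the ratio was 5.65 (exact 95% interval 1.69 to 29.6, counting error only). The log2 fold change was 1.60 without a filter (standard error 0.56, adjusted p = 0.0484, limma). This call was not made by DESeq2, at an adjusted p of 0.103, and the exact permutation test gave p = 0.0857 (two-sided). Whether Il1b changed thus depended on the test at this depth.

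The log2 ratio of Il1rn to Il1b within a muscle, from values with 1 added, was 3.61 ± 1.68 in mdx5cv and −0.15 ± 0.92 in WT (SD, n = 4), without overlap. The difference of 3.76 had an exact permutation p of 0.0286 (two-sided), the smallest that 4 muscles against 4 allow, and 0.0381 after adjustment over the 4 ratios compared. With 2 and 3 reads of these genes in WT, the ratio depended on the constant added, and with 0.1 in place of 1 the difference was 4.22 and missed the threshold (exact permutation p = 0.0857, two-sided). The related ligand gene Il1a had no read in WT and 7 in mdx5cv.

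Il33, on chromosome 19 from 29925114 to 29960718, encodes a nuclear cytokine that stromal cells release when damaged. It was at 56.2, 55.9, 40.9 and 33.9 in WT and 42.6, 51.9, 52.2 and 78.3 in mdx5cv. The groups overlapped over most of their range, and only mdx5cv replicate 4 was above every WT muscle. The difference was 0.26 in log2 (standard error 0.23, adjusted p = 0.388, limma). The adjusted p ranged from 0.0563 under scaling to equal totals to 0.781 without mdx5cv replicate 4, and no alternative gave a call.

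Its receptor gene Il1rl1, on chromosome 1 from 40429570 to 40465415, encodes ST2, found on regulatory T cells, mast cells and type 2 innate lymphoid cells. Il1rl1 was at 9.17, 15.4, 11.1 and 4.24 in WT and 24.1, 29.2, 26.1 and 29.6 in mdx5cv. The mdx5cv muscles lay close together and all were above the WT muscles. The rise was 1.48 in log2 (standard error 0.34, adjusted p = 0.00379, limma). With 10 added to the values in place of 1 it was 0.93 and no longer past the fold threshold. The log2 ratio of Il33 to Il1rl1 fell from 2.21 ± 0.48 in WT to 0.99 ± 0.27 in mdx5cv (SD, n = 4), without overlap. The difference was −1.22 (exact permutation p = 0.0286, two-sided, 0.0381 adjusted over the 4 ratios). The secreted and the membrane form of ST2 come from the same gene, and these counts do not separate them.

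Il18, on chromosome 9 from 50554827 to 50581840, encodes IL-18. It had 11 reads in WT and 49 in mdx5cv. Its normalized counts were 0, 6.58, 4.42 and 1.06 in WT and 11.1, 9.43, 11.7 and 11.2 in mdx5cv, so that every mdx5cv muscle was above every WT muscle. The ratio of scaled reads was 3.59 (exact 95% interval 1.84 to 7.67, counting error only), and the log2 fold change without a filter was 1.96 (standard error 0.57, adjusted p = 0.0168, limma). Its adjusted p in DESeq2 was 0.0262. Il18bp, which encodes the protein that binds and neutralises IL-18, was at 44.5 ± 5.10 in WT against 66.6 ± 6.95 in mdx5cv (SD, n = 4). This difference, 0.57 in log2 (adjusted p = 0.0139, limma), was not past the fold threshold. The log2 ratio of Il18 to Il18bp was higher in mdx5cv by 1.39 (exact permutation p = 0.0286, two-sided, 0.0381 adjusted over the 4 ratios), from −3.90 ± 1.40 to −2.51 ± 0.10 (SD, n = 4). With 10 added to the values this difference was 0.22 (exact permutation p = 0.429).

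Il1r1, on chromosome 1 from 40225080 to 40317257, encodes the signaling receptor for IL-1. It was at 66.5, 65.8, 46.4 and 76.3 in WT and 125, 108, 103 and 169 in mdx5cv. Every mdx5cv muscle was above every WT muscle, and the means were 63.7 ± 12.5 and 126 ± 30.0 (SD, n = 4). The difference of 0.97 in log2 (standard error 0.19, adjusted p = 0.00156, limma) missed the fold threshold of 1. It passed that threshold under equal totals, at 1.32, and without WT replicate 4, mdx5cv replicate 2 or mdx5cv replicate 3, at 1.06, 1.03 and 1.05. Equal totals moved the median of all genes tested from 0.00 to 0.36.

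Il1r2, on chromosome 1 from 40074079 to 40125231, encodes a decoy receptor that binds IL-1 without signaling. It had 9 reads in WT and 6 in mdx5cv. Its normalized counts were 3.44, 2.19, 3.32 and 1.06 in WT and 0, 2.83, 0.900 and 1.60 in mdx5cv, and the groups overlapped. The log2 fold change without a filter was −0.68 (adjusted p = 0.410, limma), and no difference was detectable at this depth. The log2 ratio of Il1r2 to Il1r1 differed by −1.65 between the groups, which overlapped (exact permutation p = 0.0571, two-sided, and 0.0571 adjusted over the 4 ratios). It passed with 10 added to the values, at −1.02 (exact permutation p = 0.0286).

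The receptor genes of the family form a cluster on chromosome 1, from the start of Il1r2 at 40074079 to the end of Il18rap at 40551705. Read along the plus strand, they are Il1r2, Il1r1, Il1rl2, Il1rl1, Il18r1 and Il18rap. Il1rl2, the receptor for the IL-36 cytokines, was called higher with a log2 fold change of 1.24 (adjusted p = 0.00215, limma). Il18r1 and Il18rap, the chains of the IL-18 receptor, had 6 and 8 reads in WT and 40 and 80 in mdx5cv, and without a filter their log2 fold changes were 1.85 and 2.61 (adjusted p = 0.0201 and 0.00204, limma). Of the 3 genes of the cluster that passed the filter, Il1r1, Il1rl2 and Il1rl1, none had overlap of the groups, beside 40.1% of all genes tested without overlap. Il18r1 and Il18rap, under the filter to which that share applies, did not overlap either, and Il1r2 did. Nothing particular to the cluster was tested. Outside the cluster, the coreceptor Il1rap on chromosome 16 had a log2 fold change of −0.39 (adjusted p = 0.173) and the inhibitory receptor Sigirr on chromosome 7 of −0.04 (adjusted p = 0.928, limma), both with overlap.

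Pycard, on chromosome 7 from 127989708 to 127993867 on the minus strand, encodes ASC, which links the sensors to caspase-1. It was at 5.73, 6.58, 4.42 and 5.30 in WT and 36.1, 31.1, 36.9 and 83.9 in mdx5cv. The WT muscles were alike, and mdx5cv replicate 4 stood well above the other mdx5cv muscles. The log2 fold change was 2.78 (standard error 0.33, adjusted p = 3.41e-05, limma), and 2.46 without that replicate. Gm45205, on the opposite strand, shares 485 exonic bases with Pycard. It had 2 to 7 reads per muscle, and without a stated strand setting reads of the shared part cannot be told apart.

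Casp1, on chromosome 9 from 5298517 to 5307265, encodes caspase-1, the protease that cuts the precursors of IL-1 beta and IL-18. It was at 2.29, 14.3, 5.53 and 7.42 in WT and 38.9, 46.2, 30.6 and 46.3 in mdx5cv. The lowest mdx5cv muscle was above the highest WT muscle. The rise was 2.50 in log2 (standard error 0.40, adjusted p = 0.000335, limma).

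Nlrp3, on chromosome 11 from 59541568 to 59566956, encodes the sensor of the best known inflammasome. It was at 0, 3.29, 2.21 and 1.06 in WT and 4.63, 0.943, 8.10 and 10.4 in mdx5cv, from 6 and 28 reads. The groups overlapped, because mdx5cv replicate 2 had 1 read. The ratio of scaled reads was 3.77 (exact 95% interval 1.53 to 11.1, counting error only), but the log2 fold change of 1.33 without a filter had an adjusted p of 0.138 in limma, and that of DESeq2 was 0.140. The exact permutation test gave p = 0.143 (two-sided). A difference in Nlrp3 was thus not shown beyond the spread of the replicates, and whether its change differed from those of Pycard and Casp1 was not tested.

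The bases before the transcription start are printed for 4 members that were called higher, Il1rn, Pycard, Casp1 and Il1rl1, and for Il33, which was not. Each run is the 120 bases before the first start site listed by RefSeq, on the strand of the gene and 5′ to 3′ (GRCm38.p6). Capitals mark matches to 1 of 4 motifs on either strand. The motifs are GGGNNNNNCC for NF-kB, GAGGAA for PU.1 (TTCCTC on the other strand), TTGCNNAA for C/EBP and TGANTCA for AP-1. The runs lie at chr2:24336740-24336859 (plus strand), chr7:127993868-127993987 (minus strand), chr9:5298397-5298516 (plus strand), chr1:40429450-40429569 (plus strand) and chr19:29924993-29925112 (plus strand), in this order.
Il1rn: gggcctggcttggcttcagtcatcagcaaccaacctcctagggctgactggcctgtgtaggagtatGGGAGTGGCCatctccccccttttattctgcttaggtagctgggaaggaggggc
Pycard: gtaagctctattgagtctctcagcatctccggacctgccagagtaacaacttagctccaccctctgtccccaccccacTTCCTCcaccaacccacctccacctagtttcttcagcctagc
Casp1: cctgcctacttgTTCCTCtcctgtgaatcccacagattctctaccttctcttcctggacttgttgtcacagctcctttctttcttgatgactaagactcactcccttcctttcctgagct
Il1rl1: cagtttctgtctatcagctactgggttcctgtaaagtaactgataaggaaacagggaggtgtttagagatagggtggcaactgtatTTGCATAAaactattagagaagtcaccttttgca
Il33: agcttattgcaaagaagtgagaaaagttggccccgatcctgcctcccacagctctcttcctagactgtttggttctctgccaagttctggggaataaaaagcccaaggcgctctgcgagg

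The Il1rn run holds an NF-kB match from −54 to −45, counted back from −1 at the last base before the start site, and an AP-1 match lies farther out, from −141 to −135. The Pycard and Casp1 runs each hold a PU.1 match on the minus strand of the run, from −42 to −37 and from −108 to −103. Farther out, Pycard has a C/EBP match from −142 to −135 and Casp1 an NF-kB match from −158 to −149. The Il1rl1 run holds a C/EBP match from −34 to −27, and the Il33 run holds no match to any of the 4 motifs. Before the second start site of Il33, not printed, a C/EBP match with the same letters as that of Il1rl1 lies from −85 to −78. The second start sites of Il1rn and Il1rl1, also not printed, have no match in the 250 bases before them. Before the third start site of Il1rn an NF-kB match lies from −51 to −42. All 10 members have an entry in RefSeq, with 16 start sites. In the 250 bases before them, NF-kB matches occurred at 5 sites, PU.1 matches at 3, C/EBP matches at 4 and AP-1 matches at 1. Among 32851 mouse promoters, the shares with a match in the same window were 45.8%, 23.3%, 9.56% and 6.75%. These short matches are a description of the letters and were not tested as binding sites.

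**Figure D2:**
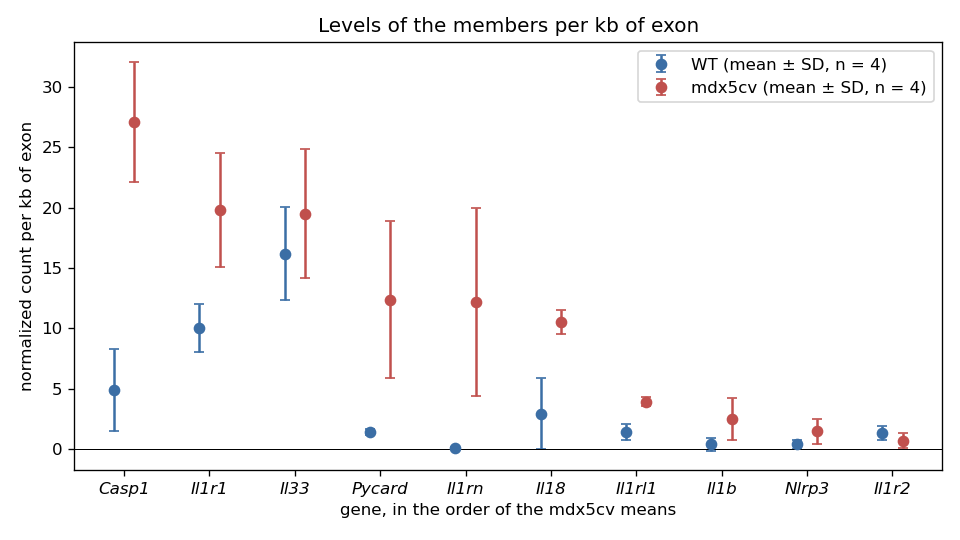
Normalized count per kb of merged exon (y axis, linear) of the 10 genes, in the order of the mdx5cv means, for WT (blue) and mdx5cv (red). Points are means and bars are SD of 4 muscles. Casp1 stands at 27.1 in mdx5cv and 4.93 in WT, while Il33 stands at 19.5 and 16.2.

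Per kb of exon, the order of the levels differed between the groups. The length is that of all annotated exons merged, such as 3800 bases for Pycard and 5535 for Il1rn against 1497 for Casp1. The rank of a gene among the others thus depends on the annotation, and a gene with mainly short transcripts would stand higher. In WT, Il33 was first at 16.2 ± 3.86 normalized counts per kb, followed by Il1r1 at 10.02 ± 1.96, Casp1 at 4.93 ± 3.38 and Il18 at 2.93 ± 2.94 (SD, n = 4). Pycard, Il1rl1 and Il1r2 lay between 1.31 and 1.45, and Il1b, Nlrp3 and Il1rn were under 0.5. The ranges of all neighbors in this order overlapped. In mdx5cv, Casp1 was first at 27.1 ± 4.99, followed by Il1r1 at 19.8 ± 4.72, Il33 at 19.5 ± 5.32, Pycard at 12.4 ± 6.51, Il1rn at 12.2 ± 7.81 and Il18 at 10.5 ± 0.96 (SD, n = 4). Il1rl1 at 3.95 ± 0.38, Il1b at 2.48 ± 1.75, Nlrp3 at 1.48 ± 1.02 and Il1r2 at 0.70 ± 0.63 came last. Among the mdx5cv neighbors, the step from Il18 to Il1rl1 was the only one without overlap. Il1rn was last in WT and next to Pycard in mdx5cv.

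The other genes of the pathway were taken from a list of 46, of which 31 were tested. Of these, 14 were called higher, 1 was called lower and 16 were not called, beside 10.3% of all genes tested called higher and 13.6% called in either direction. The median log2 fold change was 0.38, beside 0.00 for all genes tested. Among the 31, 5 averaged under 10 in WT and passed the filter through mdx5cv, and all 5 are among the 14, so that this count is not read against that share. Without a filter 43 of the list were tested, with 19 higher and 2 lower, beside 7.73% of all genes higher and 9.98% in either direction. With 10 added to the values in place of 1, Il1rl2, Aim2, Panx1, Casp8 and Gsdmd had log2 fold changes of 0.90 to 0.98 and were no longer past the fold threshold.

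**Figure D3:**
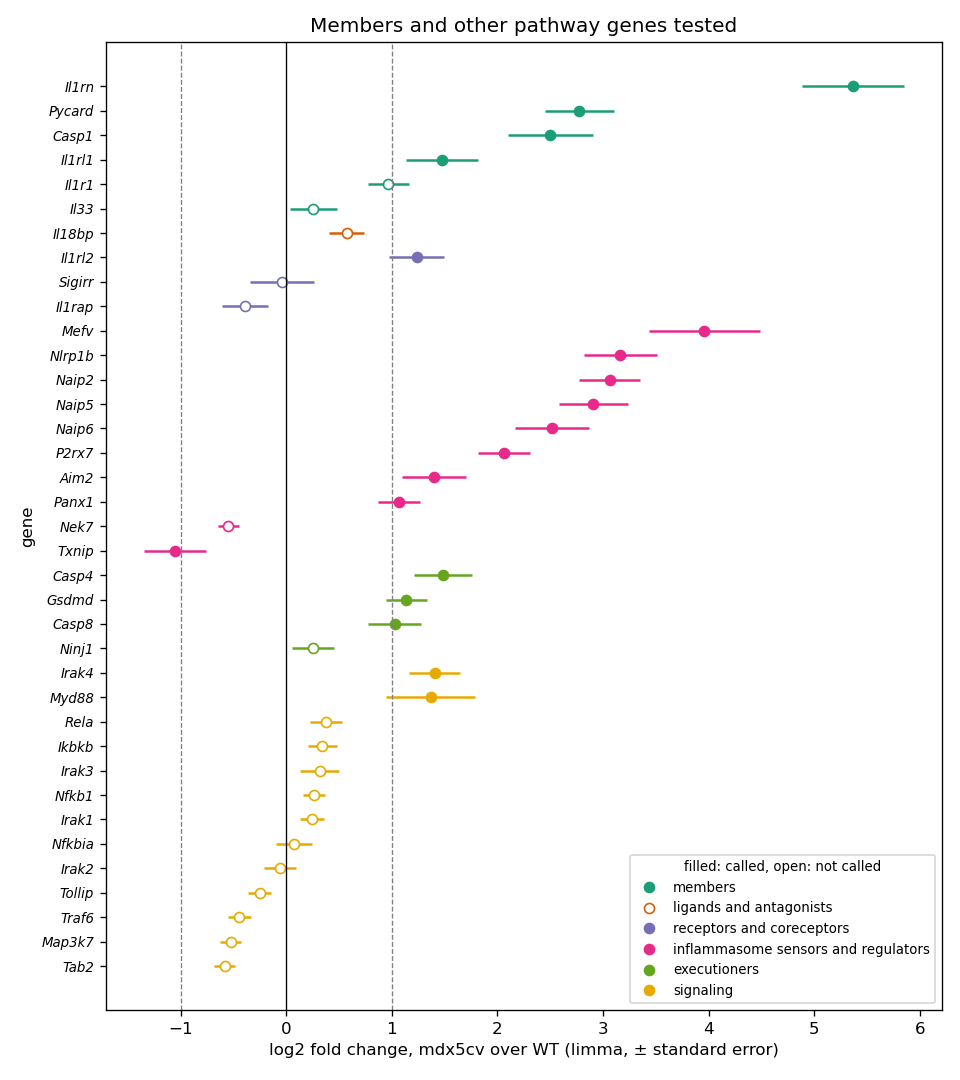
Log2 fold change of mdx5cv over WT (x axis, limma, bars are the standard error) of the 6 members and 31 other pathway genes tested, grouped by role in colors. Filled points were called, open points were not, and dashed lines mark −1 and 1. Il1rn lies farthest to the right at 5.37, and Txnip is the one filled point to the left.

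Among the sensors and regulators of inflammasomes, 8 of 10 tested were called higher, beside 10.3% of all genes tested. Of the 8, 5 passed the filter only through their level in mdx5cv, namely Mefv, Nlrp1b, Naip2, Naip5 and Naip6, and the count is not read against that share. Mefv, which encodes pyrin, was at 0, 0, 0 and 2.12 in WT and 20.4, 15.1, 18.9 and 25.6 in mdx5cv (log2 fold change 3.96, adjusted p = 8.29e-05, limma). Nlrp1b, a sensor of bacterial proteases, had a log2 fold change of 3.16, and Naip2, Naip5 and Naip6, receptors for bacterial flagellin and secretion proteins, had 3.06, 2.91 and 2.52. The Naip genes are near-identical copies, and how their reads were shared out is uncertain. Aim2, a sensor of DNA in the cytosol, had 1.40. P2rx7, the ATP receptor that triggers the NLRP3 inflammasome, rose from 30.7 ± 9.34 to 131 ± 41.2 (SD, n = 4), by 2.06 in log2 (adjusted p = 4.15e-05, limma), and the channel gene Panx1 rose by 1.07. The Panx1 call was also lost under centring on the median and without WT replicate 3 or WT replicate 4, at 0.95 to 0.97. Nlrc4, the partner of the NAIP proteins, and Nlrp1a were under the filter and were called higher without it, at 2.33 and 2.24. Nlrp10, a family member without the ligand-binding repeats, was also under the filter and was called lower without it, at −1.91 (adjusted p = 0.0114, limma, and 0.0139 in DESeq2). It had 31 reads in WT and 8 in mdx5cv, with no overlap of the groups. The NLRP3 partner Nek7 was lower at an adjusted p of 0.000916 with a log2 fold change of −0.55 that did not reach the fold threshold, and it had an adjusted p of 0.142 under equal totals (limma). Txnip, which binds thioredoxin and NLRP3, was the gene called lower, at −1.05 (adjusted p = 0.0119, limma). Its groups overlapped, and the call was lost under equal totals, in edgeR and DESeq2, and without WT replicate 4, mdx5cv replicate 1 or mdx5cv replicate 4, where it was between −0.94 and −0.69.

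Among the executioners, Casp4, the caspase of the noncanonical inflammasome, rose by 1.48, and Gsdmd, which encodes the pore protein that caspase-1 cuts, rose by 1.14 (adjusted p = 0.000850 and 0.000447, limma). Casp8 rose by 1.03 (adjusted p = 0.00555, limma). Without mdx5cv replicate 4 or WT replicate 3 Casp8 was at 0.81 and 0.84, under the fold threshold. Its call was also lost under centring on the median, at 0.93. Ninj1, which encodes a protein of plasma membrane rupture, had a log2 fold change of 0.25 (adjusted p = 0.327, limma), and Gsdme was under the filter.

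Of the 13 genes that carry the signal from the receptors to NF-kB, 2 were called higher, a share near the 10.3% of all genes tested. Irak4, a kinase of the complex at the receptor, had a log2 fold change of 1.41 (adjusted p = 0.000518) and Myd88, the adaptor of that complex, of 1.37 (adjusted p = 0.0199, limma). The Myd88 call was lost without WT replicate 2, where the fold change was 0.88, and without mdx5cv replicate 2 or 4, where the adjusted p was 0.0505 and 0.0601 (limma). Tab2, Map3k7 and Traf6 were lower by adjusted p alone, with log2 fold changes of −0.58, −0.53 and −0.44. Under equal totals their adjusted p was 0.0809, 0.211 and 0.581 (limma). The other 8 genes, among them Nfkb1, Rela, Nfkbia and Ikbkb, had log2 fold changes from −0.25 to 0.38 and did not pass with the deposited scaling in limma. Under equal totals Irak1, Irak3, Nfkb1, Rela, Nfkbia and Ikbkb were higher by adjusted p alone (0.00202 to 0.0447, limma), at 0.43 to 0.73. Nfkb1 had an adjusted p of 0.0442 in edgeR. Tollip was lower under centring on the median, at −0.34 (adjusted p = 0.0269, limma).

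Among the other ligands, Il1f6, Il1f8 and Il1f10 had no read in any muscle, and Il1f5 and Il1f9 had 3 and 1 reads, all in WT. In the libraries used here, 3 reads summed over a group are at the limit that a count of 0 allows.

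Markers of other cell types moved with the groups as well. In bulk muscle, fewer cells of a type and less RNA per cell cannot be told apart. Of 10 macrophage markers, 9 were called higher and 1, Cd163, was called lower, and their summed level was 667 to 1007 in WT and 4319 to 10322 in mdx5cv, where replicate 4 was the highest. Of 7 fibroblast markers, 3 were called higher, with sums of 5467 to 8263 and 17782 to 31779. Of 8 neutrophil markers, only Csf3r was tested, and it was called higher, while Ngp and Retnlg had no read in any muscle. The sums were 6.88 to 15.4 and 29.7 to 108, and Csf3r held 78.2% of that list's counts. Of 7 mast cell markers, 5 were tested and Mcpt4 was called higher, with sums of 53.9 to 120 and 128 to 210. The number of mast cell markers called higher was 0 in edgeR, in DESeq2, with centring on the median, with 10 added to the values and without WT replicate 1, WT replicate 3, mdx5cv replicate 2 or mdx5cv replicate 4. It was 2 with WT replicate 2 or WT replicate 4 left out and 5 under equal totals. Of 6 T cell markers, 1 was tested and not called and 4 were called higher without a filter, with sums of 8.02 to 27.4 and 37.1 to 51.9. All 5 endothelial markers were lower by adjusted p alone, none past the fold threshold, with sums of 2513 to 3045 in WT and 1536 to 1968 in mdx5cv. Their part in the results above was not tested.

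**Figure D4:**
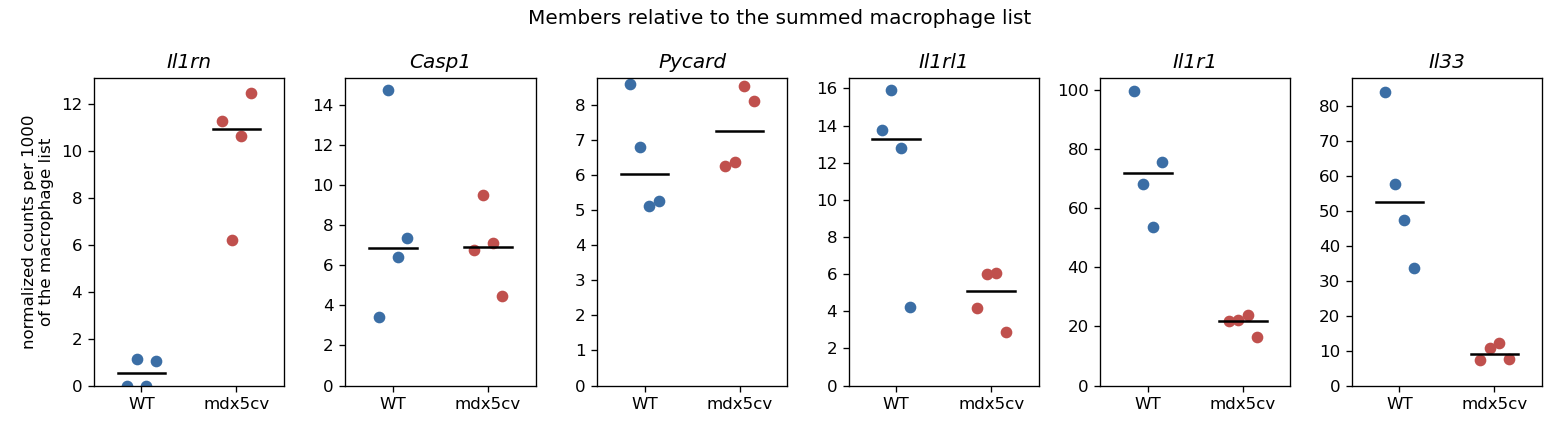
Normalized counts of 6 genes per 1000 summed normalized counts of the 10 macrophage markers (y axis, linear from 0, a scale of its own in each panel), with 1 point per muscle and a line at the median of each group. Il1rn is higher in mdx5cv, Casp1, Pycard and Il1rl1 overlap, and Il1r1 and Il33 are lower.

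Set against the macrophage markers, the members fell into 3 patterns. Per 1000 summed counts of that list, Il1rn was at 0 to 1.14 in WT and 6.19 to 12.5 in mdx5cv, still without overlap. Casp1 was at 3.44 to 14.8 and 4.49 to 9.48, and Pycard at 5.12 to 8.59 and 6.28 to 8.55, so that the groups of both overlapped. Il1b, Il18 and Nlrp3, with few reads, overlapped too, as did Il1rl1, at 4.21 to 15.9 and 2.86 to 6.05. Il1r1, at 53.7 to 99.7 in WT and 16.3 to 23.8 in mdx5cv, Il33, at 33.6 to 84.2 and 7.40 to 12.1, and Il1r2 were lower per macrophage count in mdx5cv. Lyz2 holds 49.0% of the list's counts. Without it, Pycard no longer overlapped, at 6.73 to 12.2 in WT and 12.9 to 17.6 in mdx5cv, while Casp1 still did, at 4.87 to 20.4 and 9.28 to 19.1, and Il1rn, Il1r1 and Il33 kept their pattern. These ratios are a description with no test, since the list itself differs between the groups.

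Set against the fibroblast markers, Il1rn and Pycard were higher in mdx5cv without overlap, at 1.70 to 4.05 and 1.56 to 2.64 per 1000, beside at most 0.194 and 0.969 in WT. Il1r1, at 7.96 to 14.0 in WT and 4.33 to 6.05 in mdx5cv, and Il33, at 6.20 to 9.47 and 1.99 to 2.92, were lower. Col3a1 holds 47.2% of the fibroblast list's counts, and these ratios were not computed without it. The median log2 fold change of that list was 0.63, under the 0.97 of Il1r1 itself, so the lower Il1r1 ratio does not hold for each marker. Its lowest was −0.24, under the 0.26 of Il33, so the lower Il33 ratio does not hold for each marker either. Against the endothelial markers Il33 was higher, at 11.9 to 20.9 in WT and 26.5 to 51.0 in mdx5cv. Il1rn, Il1r1, Il1rl1, Il18, Casp1 and Pycard were higher against that list without overlap too, while Il1b, Il1r2 and Nlrp3 overlapped. The endothelial sum itself was lower in mdx5cv, with a mean of 0.62 of that in WT. Against the fiber markers Il33 overlapped, at 0.030 to 0.060 in WT and 0.046 to 0.115 in mdx5cv. The level of Il33, with no detectable difference in total, thus stood beside marker sums that moved in both directions.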

How the data were processed

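Bulk RNA-seq of 4 WT and 4 mdx5cv TA muscle samples was analysed, with groups and replicate numbers taken from the labels. The values the authors deposited are a signal, since each gene's reads had been scaled by the size factor of its library, and no gene had been filtered out. The submitters' processing notes name Trim Galore 0.6.4, STAR 2.6.0c, SAMtools 1.9, featureCounts, DESeq2 1.26.0, R 3.6.2 and mm10; the annotation release and strand setting are not given in the sources used here, so overlapping genes are uncertain. The kit was stranded. Whole reads were recovered for 100% of values, within 0.001 of a whole number, and the size factors equalled median-of-ratios factors.

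limma 3.58.1 in R 4.3.3 (lmFit, eBayes with a variance trend, two-sided, no covariate) was run on log2(normalized count + 1) over the 13677 genes with a mean of at least 10, with Benjamini-Hochberg adjustment. DESeq2 1.42.0 and the quasi-likelihood test of edgeR 4.0.16 on the recovered reads were alternatives, as were other pseudocounts, filters and scalings, the replicate block and each replicate left out. Log2 ratios were compared with exact permutation tests. The scripts were tested on simulated data. Python 3.11.15 with pandas 2.3.3 and scipy 1.17.1 served the other steps. Positions and exon lengths are those of GENCODE M21, matched by gene ID, and promoter sequences are those of RefSeq. The ligands of the IL-36 group were matched through RefSeq synonyms to the symbols Il1f5, Il1f6, Il1f8 and Il1f9.

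The members, the 46 other pathway genes and the marker lists were chosen by role, with earlier results of these data known. The text names the members and, from the other pathway genes, any past the threshold or with a role described. Marker lists are given mainly by their counts and sums. Genes under the filter were tested in a fit without it.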

Additional observations from a re-analysis of the deposited data

Results flagged for a closer look

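In mdx5cv replicate 4, Pycard was at 6.41 on the scale of log2(normalized count + 1), apart from the other mdx5cv muscles at 5.01 to 5.24. The gap, with a Dixon statistic of 0.8295, was only just larger than Dixon's test at the 95% level allows for 4 samples. It was the only such muscle among 42 sets of 4 muscles examined, and chance gives about 2.1.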

How the results depend on the processing

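The number of members called higher was 4 and stayed between 3 and 6, except that with a normalized count of at least 10 required in every sample it was 0, since that filter removes the 4 genes that are low in WT. Leaving out each replicate gave 4 to 5, and no member was called lower under any alternative. The 14 other pathway genes called higher became 9 with a pseudocount of 10 and 6 with at least 10 in every sample. The 1 called lower became 2 without a filter, 5 by adjusted p alone, and 0 under equal totals and in edgeR, and it was 0 to 1 with each replicate left out. Among single members, Il1r1 became a call in 4 alternatives, Il1rl1 was lost with a pseudocount of 10 and Il1b in DESeq2, and none reversed. The cause of these changes was not tested.

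With a pseudocount of 0.1 the log2 ratio of Il1rn to Il1b differed by 4.22 (exact permutation p = 0.0857). With a pseudocount of 10 the ratio of Il1r2 to Il1r1 differed by −1.02 (exact p = 0.0286) and that of Il18 to Il18bp by 0.22 (exact p = 0.429). Without single replicates the differences ranged from 3.27 to 4.39 for Il1rn to Il1b, from −2.01 to −1.29 for Il1r2 to Il1r1, from −1.35 to −1.04 for Il33 to Il1rl1 and from 0.85 to 1.81 for Il18 to Il18bp, where an exact p cannot go below 0.0571.

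Samples with the same replicate number correlated at 0.05, 0.03, 0.07 and 0.15 in their deviations from the group means. Pairs of unlike number lay between −0.15 and 0.07. Whether a shared number marks a shared batch was not tested. With the replicate number as a block, 4 members, 14 other genes higher and 1 lower were called, and the paired differences were 3.76, −1.65, −1.22 and 1.39, where an exact p cannot go below 0.125. Reads of Il1b, Il1r2, Il18 and Nlrp3 were too few for small changes to be seen.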
